A study of Homo sapiens with 8 samples.

Results

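The human mitochondrial genome carries 37 genes in the deposited table, taken as every row whose chromosome is MT, of 57773 genes in all: 13 messenger RNAs, 2 ribosomal RNAs and 22 transfer RNAs. Their transcripts were measured in ZR-75-1, an established luminal breast cancer line, by RNA sequencing of 8 libraries made with a stranded total RNA kit and read as paired ends of 100 bp. Medium without phenol red and with charcoal-stripped serum had kept every culture short of steroids for 72 h. The 4 E2 libraries then received 10 nM E2 (estradiol) for 4 h and the 4 E2+DHT libraries received 10 nM E2 with 10 nM DHT (dihydrotestosterone, an androgen) for the same time. Neither group was free of hormone, so the effect of E2 alone on these transcripts cannot be read here.

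The treatment of a library was taken from the library name, which heads its column. In 4 of the 8 records the title names the other treatment, and the values under the titles are given where they differ. The recorded passage differed between some replicates of a treatment, but the labels do not say whether replicates were separate cultures. P-values may therefore measure only technical spread and the spread between passages. Library sizes ran from 19955045 to 31913885 reads for E2 and from 19599217 to 34616639 for E2+DHT. All 9 luminal markers were expressed, with a summed level of 1888 to 2607 RPKM in E2 and 2255 to 2549 in E2+DHT. The summed level of 6 basal markers was at most 0.353 RPKM in a library, that of 5 immune markers at most 0.781 and that of 3 endothelial markers at most 0.125. Of 6 fibroblast markers only COL1A1 was high enough to be tested, and their sum was at most 1.31 RPKM.

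Mitochondrial DNA is a small circle that is transcribed on both strands into long precursors by its own polymerase, POLRMT, with the factors TFAM and TFB2M. The transfer RNAs lie between most of the other genes, and their excision releases the ribosomal and messenger RNAs. The ribosomal RNAs build the mitochondrial ribosome, and the messenger RNAs encode core subunits of respiratory complexes I, III and IV and of ATP synthase, while nuclear genes supply the remaining subunits. Transcripts cut from a shared precursor can still reach different levels, because they differ in stability.

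Of the 37 genes, 28 lay on the plus strand (12 messenger RNAs, both ribosomal RNAs and 14 transfer RNAs). The other 9 lay on the minus strand: MT-ND6 and the transfer RNAs MT-TQ, MT-TA, MT-TN, MT-TC, MT-TY, MT-TS1, MT-TE and MT-TP. Neighbours are packed so tightly that some share bases, which bears on how reads can be assigned. MT-ATP8 and MT-ATP6 shared 46 bases, MT-ND4L and MT-ND4 shared 7, and MT-ATP6 and MT-CO3, like MT-TC and MT-TY, shared 1. MT-TI and MT-TQ, on opposite strands, shared 3. The sequences below show the overlaps of MT-ATP8, MT-ND4L and the pair MT-TC and MT-TY, with the shared bases in capitals. They are taken from GENCODE 29 transcripts, in which all 37 genes have the coordinates and strand of the deposited table (hg19, per the submitters' processing notes). MT-ATP8 is shown whole (MT:8366-8572, plus strand), MT-ND4L by its last 60 bases (MT:10707-10766, plus strand), and MT-TC (MT:5761-5826) and MT-TY (MT:5826-5891) whole from the minus strand.
MT-ATP8: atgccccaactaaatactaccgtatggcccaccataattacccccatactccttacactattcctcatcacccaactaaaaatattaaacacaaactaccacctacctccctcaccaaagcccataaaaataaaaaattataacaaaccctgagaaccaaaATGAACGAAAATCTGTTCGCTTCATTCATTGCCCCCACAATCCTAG
MT-ND4L: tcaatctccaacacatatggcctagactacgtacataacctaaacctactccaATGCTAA
MT-TC: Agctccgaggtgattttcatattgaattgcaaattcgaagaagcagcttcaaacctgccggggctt
MT-TY: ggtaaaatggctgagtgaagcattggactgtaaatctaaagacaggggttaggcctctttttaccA

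The strands also differ in composition, which the first 60 bases of 2 neighbouring messenger RNAs of opposite strand show with every G in capitals. MT-ND5 is read from the plus strand (MT:12337-12396) and MT-ND6 from the minus strand (MT:14614-14673). Over the whole gene, G made up 6.28% to 16.2% of the 12 plus-strand messenger RNAs and C 29.5% to 36.0%, whereas C made up 7.05% of MT-ND6.
MT-ND5: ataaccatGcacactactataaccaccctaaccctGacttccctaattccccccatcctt
MT-ND6: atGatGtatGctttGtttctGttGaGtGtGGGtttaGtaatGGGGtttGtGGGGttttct

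Mitochondrial transcripts made up 23.0% to 27.7% of every library, and almost all of that was ribosomal RNA. The 37 genes held 23.3%, 27.6%, 23.0% and 25.2% of the reads of E2 replicates 1 to 4, and 24.7%, 27.7%, 27.3% and 26.4% of those of E2+DHT replicates 1 to 4. The means were 24.8% ± 2.11 and 26.5% ± 1.34 (SD, n = 4 each), and the groups overlapped. The difference of 1.73 percentage points was 1.14 to 2.67 without single libraries, and -0.35 under the record titles. The 95% Wilson interval of a library was at most 0.0198 percentage points to either side, so the spread between libraries was far wider than counting error, which is all that these intervals cover. The ribosomal RNAs took 96.1% to 96.9% of the mitochondrial reads. The 13 messenger RNAs together took 0.717% to 1.08% of a library. Their share was 0.847% ± 0.161 in E2 and 0.893% ± 0.0776 in E2+DHT (SD, n = 4 each). How far ribosomal RNA was removed from these libraries is not given in the sources used here, so its share is not the share in the cells.

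**Figure D1:**
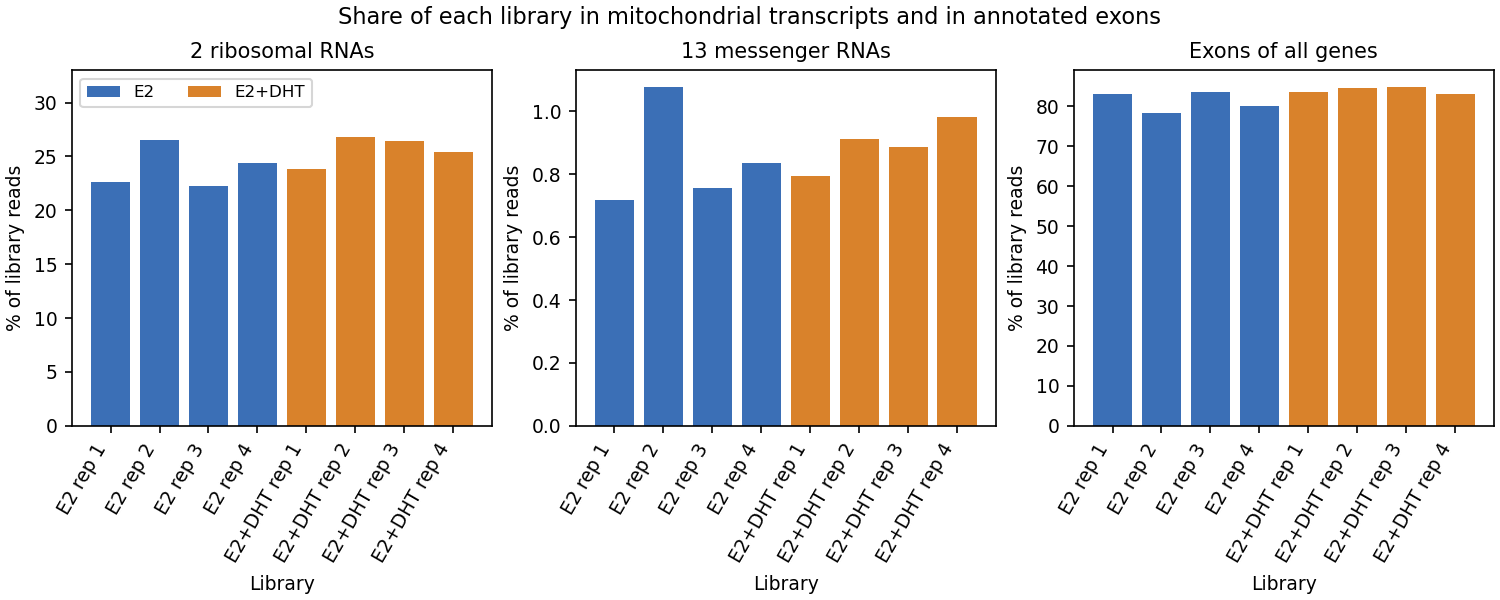
Bars give, for each of the 8 libraries, the percentage of its reads in the 2 mitochondrial ribosomal RNAs, in the 13 messenger RNAs, and in the annotated exons of all genes (each axis starts at 0 and has its own scale). The messenger RNA share was highest in E2 replicate 2, at 1.08%, where the exon share was lowest, at 78.3%.

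Levels are given as RPKM, reads scaled by gene length and by library size. The scaling takes no account of shared bases or of genes that are short beside a 100 bp read. MT-ATP8 and MT-ATP6 are read from a shared message, yet MT-ATP8 was 0.460 to 0.570 of MT-ATP6. The order below is therefore one of RPKM and not of transcript numbers. Among messenger RNAs the order by mean level ran from MT-CO3 (3888 RPKM over the 8 libraries) through MT-CO1 (1943), MT-CO2 (1074), MT-ND3 (534.5), MT-ATP6 (394.4), MT-CYB (319.6), MT-ND4 (314.2), MT-ND4L (243.5), MT-ND1 (236.3), MT-ATP8 (208.1), MT-ND5 (118.9) and MT-ND2 (80.2) to MT-ND6 (53.7). The upper end of this order was the same in every library: MT-CO3 exceeded MT-CO1, MT-CO1 exceeded MT-CO2, and MT-CO2 exceeded MT-ND3 in 8 of 8. Neighbours in the middle changed places. MT-CYB exceeded MT-ND4 in 5 of 8 libraries and MT-ND4L exceeded MT-ND1 in 4 of 8, so these pairs could not be ranked beyond their spread. The lower end was again constant, with MT-ND5 above MT-ND2 and MT-ND2 above MT-ND6 in 8 of 8 libraries. The 3 cytochrome c oxidase messages held 74.1% to 80.6% of the messenger RNA reads.

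**Figure D2:**
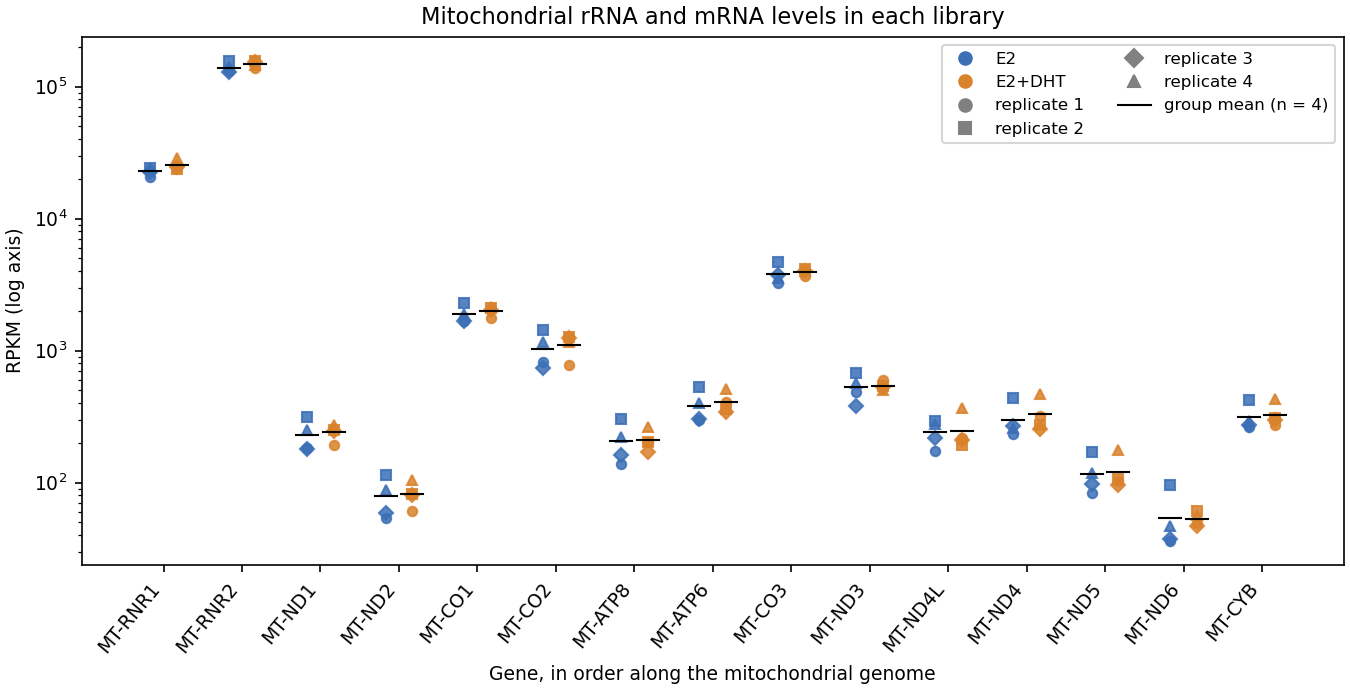
Points are the RPKM (log axis) of the 2 ribosomal RNAs and 13 messenger RNAs in each of the 8 libraries, with genes in genome order, colour for the treatment, shape for the replicate and a line at the mean of 4. The treatments overlapped for each of these 15 genes, and E2 replicate 2 was the highest library for 9 of the 13 messenger RNAs.

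No mitochondrial transcript was called different between E2+DHT and E2. Of the 17 that could be tested, 0 were higher and 0 were lower at a limma adjusted p under 0.05, beside 21 of all 11375 tested genes (0.185%), of which 20 were higher (0.176%) and 1 lower (0.00879%). The 21 fell to between 6 and 11 without any 1 of 7 libraries and to 18 without E2 replicate 1. At an unadjusted p under 0.05 the count was also 0 of 17, beside 4.47% of all tested genes, and with voom on recovered reads, another tool run, no transcript passed. In 0 of 17 did the 4 values of each group keep apart, beside 3.4% of all tested genes. Tested genes were those with a mean of at least 0.5 RPKM, and the 17 were the 13 messenger RNAs, both ribosomal RNAs, MT-TC and MT-TY.

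Their fold changes, E2+DHT relative to E2 on the log2(RPKM + 0.5) scale, were mostly above 0. They were small for the ribosomal and messenger RNAs, but 0.85 for MT-TY and -0.84 for MT-TC, which rest on few reads. The sign was positive for 13 of 13 messenger RNAs and for 16 of 17 tested transcripts, beside 56.3% of all tested genes, but these members move together across libraries. The median over the messenger RNAs was 0.090 (0.013 to 0.14), against 0.014 over all tested genes. That sign was not stable. Without E2 replicate 1, E2 replicate 3 or E2+DHT replicate 4 the median was -0.0099, -0.017 and -0.018. Under the record titles it was -0.0071 (-0.28 to 0.28), with 7 of 13 below 0. With the recorded passage as a numeric covariate, chosen after seeing the data, it was -0.13 (-0.23 to -0.0032), with 13 of 13 below 0, and 0 of 17 transcripts had an unadjusted limma p under 0.05, beside 16.6% of all tested genes. Scaling every library to the same messenger RNA sum centres these genes near 0 by construction (median 0.0036), so the signs there carry no information. Without E2 replicate 2 it was 0.25, and in that fit 2 of 17 transcripts, MT-ND6 and MT-TY, had an unadjusted p under 0.05, beside 4.39% of all tested genes, and 0 passed after adjustment. Among the 13 messenger RNAs the 95% intervals were narrowest for MT-CO1, with folds from 0.879 to 1.31, and MT-CO3, with 0.853 to 1.29. They were widest for MT-ND6, with 0.715 to 1.59. The 2 tested transfer RNAs had wider ones, 0.255 to 1.22 for MT-TC and 0.982 to 3.30 for MT-TY. RPKM is relative to the reads of its library, so a change in these transcripts cannot be told apart from a change in the rest of the RNA. RNA from whole cultures also does not show whether all cells or only some of them changed.

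**Figure D3:**
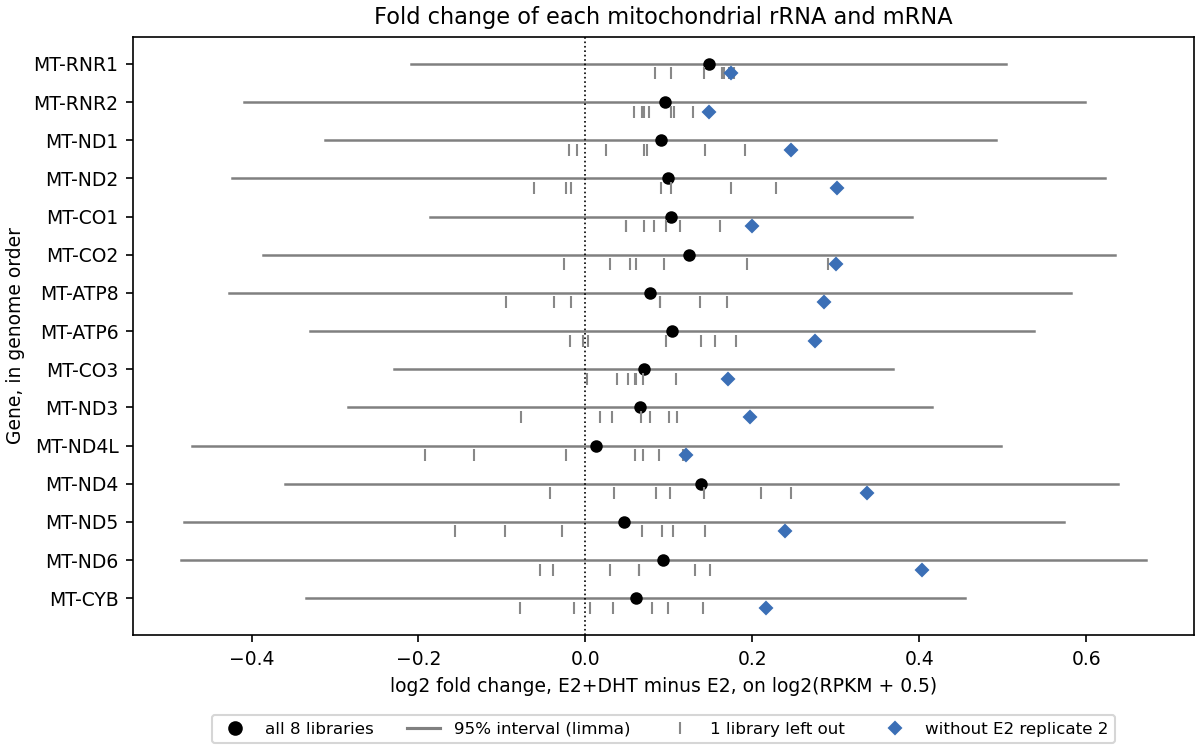
Black points are log2 fold changes (E2+DHT minus E2, on log2(RPKM + 0.5)) of the 15 ribosomal and messenger RNAs with their 95% limma intervals, grey ticks are the same value with 1 library left out, and blue diamonds the value without E2 replicate 2. Every interval includes 0, and the messenger RNA median is 0.25 without E2 replicate 2 and -0.018 without E2+DHT replicate 4.

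MT-RNR1, the small-subunit ribosomal RNA (MT:648-1601), stood at 20852, 24223, 22611 and 24115 RPKM in E2 and at 24434, 23836, 24563 and 29005 in E2+DHT. E2+DHT replicate 4 was the highest and E2 replicate 1 the lowest, and the groups overlapped. The log2 fold change was 0.15 ± 0.160 (SE, limma adjusted p = 0.999). MT-RNR2, the large-subunit ribosomal RNA and the most abundant transcript, stood at 132208, 155280, 128934 and 141428 RPKM in E2 and at 138218, 157194, 154361 and 145159 in E2+DHT. Its log2 fold change was 0.095 ± 0.226 (SE, limma adjusted p = 0.999). The SD of log2 RPKM over the 8 libraries was 0.134 for MT-RNR1 and 0.109 for MT-RNR2, so both varied little. The intensity trend in the spread model widened their errors. Without it the standard errors were 0.0846 and 0.0797, and both adjusted p stayed above the threshold.

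Complex I, the NADH dehydrogenase that feeds electrons into the chain, takes 7 of its subunits from mitochondrial DNA. MT-ND1, which helps to form its quinone-binding site, had 182.7, 311.8, 178.9 and 251.4 RPKM under E2, against 194.1, 249.3, 247.7 and 274.4 under E2+DHT. MT-ND2, a proton-pumping subunit, had 53.5, 114.5, 58.8 and 87.7 RPKM under E2, against 61.3, 81.8, 79.9 and 103.9 under E2+DHT. In both genes E2 replicates 1 and 3 were low, E2 replicate 2 was the highest of all 8, and E2+DHT replicate 1 was the lowest of its group. MT-ND3, a small membrane subunit, had 482.2, 678.7, 383.8 and 565.9 RPKM under E2, against 596.7, 539.3, 526.7 and 502.7 under E2+DHT, where its 4 values lay close together inside the E2 range.

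MT-ND4L and MT-ND4, a small and a large membrane subunit, are read from a shared message. MT-ND4L had 173.8, 295.0, 218.8 and 275.8 RPKM under E2, against 216.3, 191.9, 211.8 and 364.9 under E2+DHT. MT-ND4 had 233.1, 438.1, 268.0 and 259.3 RPKM under E2, against 317.8, 275.3, 255.9 and 466.4 under E2+DHT. MT-ND5, another proton-pumping subunit, had 84.1, 169.2, 96.9 and 118.4 RPKM under E2, against 103.1, 106.1, 95.3 and 178.0 under E2+DHT. For all 3 genes the value of E2+DHT replicate 4 was the highest of the 8 libraries, while the other 3 of its group lay within the E2 range. The log2 fold changes of these 6 plus-strand complex I genes lay between 0.013 (MT-ND4L, standard error 0.218) and 0.14 (MT-ND4, standard error 0.225), and every limma adjusted p was 0.999 or above.

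MT-ND6, also a complex I subunit, is the only messenger RNA of the minus strand. It had 36.4, 95.2, 37.7 and 46.8 RPKM under E2, against 49.1, 60.7, 47.2 and 56.5 under E2+DHT. E2 replicate 2 was 2.61 times E2 replicate 1, the widest range of the 13, and the other 7 libraries stayed at or below 60.7. The means were 54.0 ± 27.8 and 53.4 ± 6.33 RPKM (SD, n = 4 each), so the mean was slightly lower on the linear scale while the log2 fold change was 0.093 ± 0.260 (SE, limma adjusted p = 0.999). Without E2 replicate 2 the log2 fold change of MT-ND6 was 0.40 (limma adjusted p = 0.520). Whether reads were counted by strand is not given in the sources used here, and without it MT-ND6 reads cannot be told from antisense reads of the plus-strand precursor.

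MT-CYB encodes cytochrome b, the only complex III subunit made in mitochondria. It had 263.7, 425.6, 274.1 and 290.6 RPKM under E2, against 271.0, 308.1, 295.8 and 427.9 under E2+DHT, with 1 high library in each group. Its log2 fold change was 0.060 ± 0.178 (SE, limma adjusted p = 0.999).

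The messages of complex IV, the cytochrome c oxidase that passes electrons to oxygen, were the most abundant. MT-CO1, the catalytic core subunit, had 1666, 2279, 1667 and 1906 RPKM under E2, against 1772, 2087, 2027 and 2139 under E2+DHT. MT-CO3, also a core subunit, had 3278, 4659, 3769 and 3532 RPKM under E2, against 3661, 4121, 4045 and 4043 under E2+DHT. These were the steadiest messenger RNAs, with the highest library 1.37 times the lowest for MT-CO1 and 1.42 times for MT-CO3. MT-CO2, the subunit that accepts electrons from cytochrome c, had 820.4, 1442, 732.4 and 1154 RPKM under E2, against 772.2, 1264, 1246 and 1162 under E2+DHT. Its low libraries were E2 replicates 1 and 3 and E2+DHT replicate 1. The log2 fold changes of MT-CO1, MT-CO2 and MT-CO3 were 0.10, 0.12 and 0.070, with standard errors of 0.130, 0.230 and 0.135 (limma adjusted p = 0.999 each).

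ATP synthase takes 2 membrane subunits from mitochondrial DNA, both read from a shared message. MT-ATP8 had 137.3, 303.2, 161.5 and 222.5 RPKM under E2, against 202.6, 202.4, 171.5 and 263.9 under E2+DHT. MT-ATP6 had 298.5, 532.1, 302.1 and 401.0 RPKM under E2, against 406.0, 359.6, 341.0 and 515.0 under E2+DHT. For both genes the range of E2 enclosed that of E2+DHT. The log2 fold changes were 0.078 and 0.10, with standard errors of 0.227 and 0.195 (limma adjusted p = 0.999 each).

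Transfer RNAs were almost absent from the table. They are 59 to 75 bases long, shorter than a 100 bp read, and all 22 together held 50 of 218416577 reads, 19 in E2 and 31 in E2+DHT. For 16 of the 22 the count was 0 in every library. In a single library a count of 0 allows up to 3 reads, which for genes this short is 1.16 to 2.59 RPKM depending on the gene and the library. MT-TY, for tyrosine, had 2, 3, 0 and 1 reads in E2 and 5, 2, 5 and 2 in E2+DHT. MT-TC, for cysteine, had 3, 4, 1 and 0 reads in E2 and 1, 0, 0 and 2 in E2+DHT. The log2 fold changes of these 2 neighbours on the minus strand, whose sequences are given above, were 0.85 (standard error 0.393) and -0.84 (standard error 0.509), both with a limma adjusted p of 0.999. MT-TF, for phenylalanine, had 1, 0, 0 and 0 reads in E2 and 2, 2, 1 and 2 in E2+DHT, too few to be tested. MT-TV had 3 reads in E2 and 5 in E2+DHT, MT-TL1 had 1 read in each group, and MT-TP had 1 read, in E2+DHT replicate 2. The remaining minus-strand ones, MT-TQ, MT-TA, MT-TN, MT-TS1 and MT-TE, were at 0 reads throughout.

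The messenger RNAs varied between libraries more than most nuclear genes of high level. The SD of log2 RPKM over the 8 libraries had a median of 0.355 for the 13 messenger RNAs (0.156 to 0.436), against 0.126 for the 1227 nuclear genes with a mean of at least 20 RPKM. Of those nuclear genes 32 (2.61%) had an SD of 0.355 or more. The median SD of the 2 ribosomal RNAs was 0.121. The fewest reads behind a messenger RNA in a library were 395, for which counting error is 5.03%, which is smaller than this spread. The summed level of the 13 messenger RNAs was 7710, 11744, 8149 and 9112 RPKM in E2 replicates 1 to 4. It was 8623, 9847, 9590 and 10498 RPKM in E2+DHT replicates 1 to 4, so the highest library was 1.52 times the lowest and both lay within E2.

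The messenger RNAs mostly shared this spread. Relative to its own mean, every one of the 13 was above in E2 replicate 2 and below in E2 replicates 1 and 3, and 12 of 13 were above in E2+DHT replicate 4. The lowest library was E2 replicate 1 or 3 for 13 of 13, and the highest was E2 replicate 2 for 9 and E2+DHT replicate 4 for 4. The mean log2 deviation of the 13 was -0.37, 0.47, -0.30 and 0.028 in E2 replicates 1 to 4 and -0.11, 0.018, -0.060 and 0.32 in E2+DHT replicates 1 to 4. This library mean held 73.6% of the messenger RNA variation over the libraries. Pearson's r between 2 messenger RNAs over the 8 libraries ran from 0.286 (MT-ND3 with MT-ND4L) to 0.983, with a median of 0.796 over 78 pairs. These r describe values that share their libraries and depth, and carry no test.

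**Figure D4:**
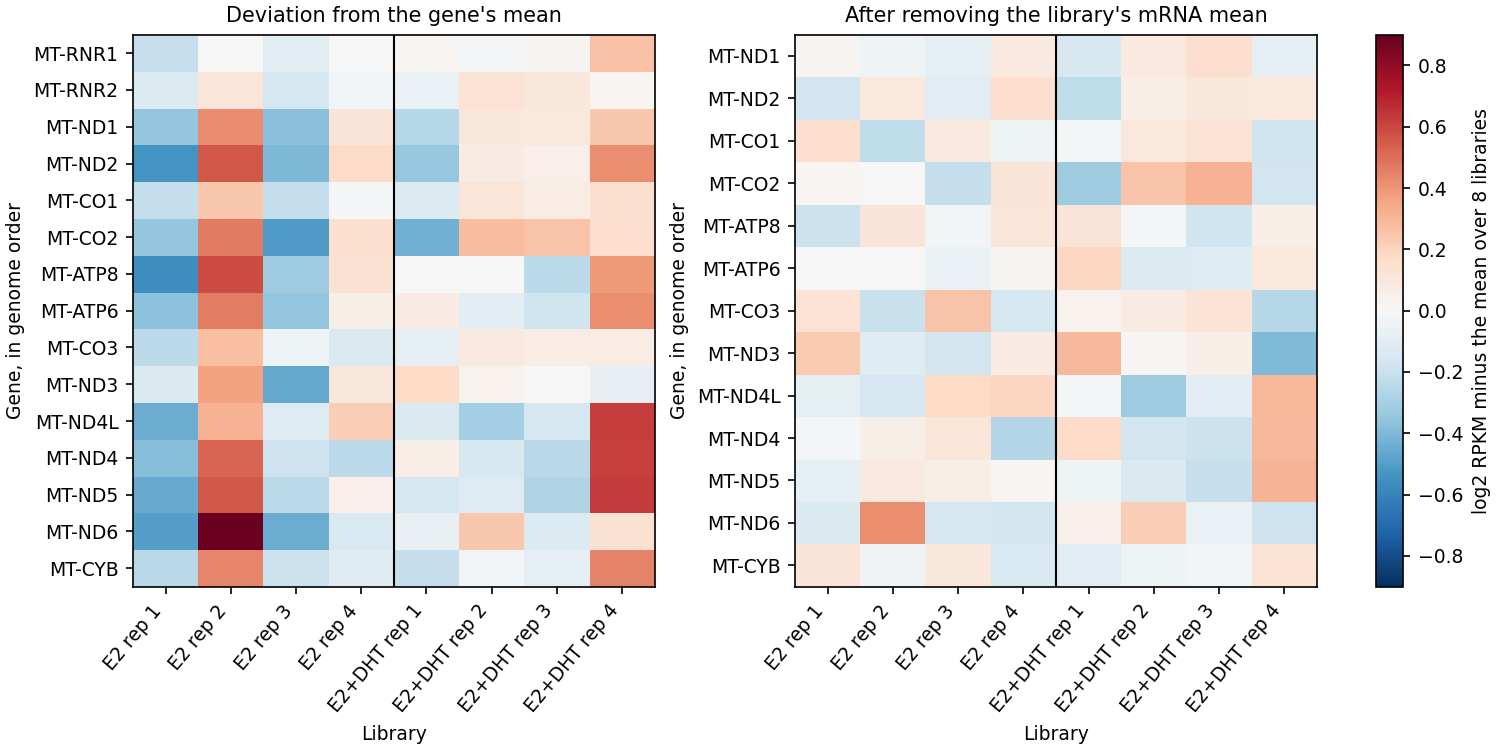
Colour gives log2 RPKM minus the gene's mean over the 8 libraries (left, 15 genes), and the same after the mean deviation of the 13 messenger RNAs in that library is removed (right), with a line between the treatments. E2 replicate 2 and E2+DHT replicate 4 are high and E2 replicates 1 and 3 low on the left, and on the right MT-ND4L, MT-ND4 and MT-ND5 stay high and MT-ND3 low in E2+DHT replicate 4.

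What remained after the library mean was removed differed between genes and between libraries. In E2+DHT replicate 4, MT-ND4L, MT-ND4 and MT-ND5 stayed 0.30, 0.29 and 0.31 above their means on the log2 scale, while MT-ND3 lay at -0.40 and MT-CO3 at -0.26. MT-CO2 lay at -0.32 in E2+DHT replicate 1 and at 0.26 and 0.32 in E2+DHT replicates 2 and 3. MT-ND6 stayed 0.42 above its mean in E2 replicate 2. The level of MT-CO2 relative to MT-ATP6, which lies downstream of it, ran from 1.90 in E2+DHT replicate 1 to 3.65 in E2+DHT replicate 3, and stayed between 2.42 and 2.88 in E2. The level of MT-ND3 relative to MT-ND4L was 1.38 in E2+DHT replicate 4 and 1.75 to 2.81 in the other 7 libraries. These pairs were chosen after their values were seen and were not tested.

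Other measures of the libraries were set beside the messenger RNA levels. The exon share, the part of a library's reads that lay in the exons of the table (mitochondrial genes included), was 83.0%, 78.3%, 83.7% and 80.0% in E2 and 83.7%, 84.5%, 84.8% and 83.2% in E2+DHT, and was lowest in E2 replicate 2, where the messenger RNAs were highest. The other libraries did not follow that order: E2+DHT replicate 4, the second highest, had a share of 83.2%, and E2 replicate 4, with the second lowest share, had a mean deviation of 0.028. The exon share also differed between the treatments, with means of 81.2% in E2 and 84.0% in E2+DHT. With the exon share as a covariate, chosen after seeing the data, the median fold change of the 13 messenger RNAs was 0.54 on the log2 scale (0.21 to 0.69). The median over all tested genes in that fit was -0.069. There 12 of the 17 tested transcripts had an unadjusted limma p under 0.05, beside 7.32% of all tested genes. These members move together across libraries, so the 12 are not independent. After adjustment 0 passed, the lowest limma adjusted p being 0.236 for MT-ATP6. The part of the exon share in the differences between libraries was not tested.

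By library name, the passage given in the record was 8, 10, 8 and 10 for E2 and 9, 11, 9 and 11 for E2+DHT. Each passage then had 1 treatment only, and the treatments alternated over the passages. Within E2 both passage 8 libraries lay below both passage 10 libraries for 11 of 13 messenger RNAs, beside 8.84% of all tested genes. Within E2+DHT both passage 9 libraries lay below both passage 11 libraries for 6 of 13, beside 8.95%. The members share their libraries, so these are not independent counts. By the record titles, each treatment held 1 library of each of the passages 8, 9, 10 and 11, so every passage had both treatments. The fit with passage as a covariate, given above, holds for the library names alone.

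Fixed ratios within a library, which do not depend on its size, also did not separate the treatments taken from the library names. The groups overlapped in all 5, and each was compared by a two-sided exact permutation test over the 70 splits of 4 against 4 libraries, whose smallest possible p is 0.0286. The large ribosomal RNA was 6.08 ± 0.349 times the small one in E2 and 5.89 ± 0.705 times in E2+DHT (SD, n = 4 each, exact permutation p = 0.6). The small ribosomal RNA was 103.5 ± 21.3 times MT-ND1, the first message beyond the ribosomal genes, in E2 and 106.6 ± 13.5 times in E2+DHT (exact permutation p = 0.8). MT-ND6 relative to MT-ND5, its neighbour on the other strand, was 0.445 ± 0.0808 in E2 and 0.465 ± 0.107 in E2+DHT (exact permutation p = 0.829).

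For the 2 shared messages the frames can be compared directly. MT-ATP8 was 0.530 ± 0.0487 of MT-ATP6 in E2 and 0.519 ± 0.0295 in E2+DHT (exact permutation p = 0.771). The ratio stayed between 0.460 and 0.570 over the 8 libraries, and the 46 shared bases printed in capitals belong to both genes. MT-ND4L was 0.825 ± 0.170 of MT-ND4 in E2 and 0.747 ± 0.0700 in E2+DHT (exact permutation p = 0.543). After Benjamini-Hochberg adjustment over the 5 ratios every exact permutation p was 0.829. Under the record titles the order turned for MT-ND4L over MT-ND4, and the groups kept apart, at 0.673 to 0.745 in E2 and 0.782 to 1.06 in E2+DHT. The log2 difference was 0.31 at the smallest possible exact permutation p of 0.0286 (adjusted 0.143), which is not past the threshold.

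Nuclear genes that make and process mitochondrial RNA did not pass the threshold either. POLRMT, the mitochondrial RNA polymerase, was at 2.18 ± 0.710 RPKM under E2 and at 2.40 ± 0.173 under E2+DHT (SD, n = 4 each, as below). TFAM, which packages mitochondrial DNA and starts transcription, had 9.46 ± 0.874 and 8.96 ± 0.299 RPKM. TFB2M, which opens the promoter, had 11.2 ± 0.669 and 10.3 ± 1.44 RPKM. LRPPRC, which stabilises mitochondrial messenger RNAs, had 32.7 ± 2.24 and 31.5 ± 0.648 RPKM, and TEFM, the elongation factor, had means of 3.13 and 3.10. In the list of mitochondrial transcription genes 0 of 10 tested were higher and 0 lower, with 4 fold changes above 0 and a median of -0.028 on the log2 scale. Over all tested genes 0.185% were called, 56.3% were above 0 and the median was 0.014. The largest was POLRMT at 0.15.

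Lists of the downstream steps gave the same count, beside 0.185% of all tested genes called. At that share a count of 0 in lists this short says little about these genes. For RNA processing and turnover 0 of 20 tested genes passed in either direction (median -0.0020), with the largest log2 fold changes in FASTK (0.17) and TBRG4 (0.16), related RNA-binding proteins of mitochondria. For mitochondrial DNA replication 0 of 11 passed (median -0.023). POLG2, the accessory subunit of the DNA polymerase, had the largest value, from 2.28 ± 0.139 to 1.94 ± 0.167 RPKM and a log2 fold change of -0.19 (SD, n = 4 each, limma adjusted p = 0.999). For ribosomal RNA modification 0 of 10 passed (median -0.0030), with MPV17L2, a ribosome assembly factor, at 0.18. Of 8 tested regulators of mitochondrial biogenesis 0 passed (median 0.011), and PPARGC1B, a coactivator of respiratory genes, had the largest value at 0.18.

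The nuclear partners in the respiratory chain had mostly small positive fold changes, but they share their libraries, so their signs are not independent. Of 68 tested nuclear subunits 0 were higher and 0 lower, 57 had a fold change above 0, and the median was 0.057 on the log2 scale, beside 0.185% called, 56.3% above 0 and a median of 0.014 over all tested genes. NDUFA3, a complex I subunit, had the largest, from 13.8 ± 1.96 to 16.8 ± 1.89 RPKM and a log2 fold change of 0.28 (SD, n = 4 each, limma adjusted p = 0.999). NDUFA13, also of complex I, followed at 0.24 and COX6A1, of complex IV, at 0.23. NDUFA13 and COX6A1 were lowest in E2 replicate 2, at 1.46 and 31.5 RPKM, the library where the summed mitochondrial messenger RNA level was highest. NDUFA3 was lowest in E2 replicate 4, at 11.7 RPKM. How far the positive signs rest on single libraries was not tested.

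Nuclear copies of mitochondrial genes can take reads from them, or give reads to them. Of 188 such copies recognised by symbol, 110 were at 0 in every library and only 2 reached the level for testing. MTRNR2L12 on chromosome 3 was at 0.971 ± 0.245 RPKM under E2 and at 1.10 ± 0.301 under E2+DHT, and MTRNR2L9 on chromosome 6 had means of 0.619 and 0.527. All copies together summed to 2.15 to 5.01 RPKM in E2 libraries and 2.14 to 3.47 in E2+DHT libraries, below the level of every mitochondrial ribosomal and messenger RNA. How reads that match several places were treated is not given in the sources used here.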

How the data were processed

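The authors deposited RPKM values for 57773 genes in 8 libraries, per the file headers; the build was hg19, per the submitters' processing notes. The aligner, counter, strand setting and annotation were not given in the sources used here. Library sizes and whole reads were recovered from the RPKM steps: all 8 values of 27594 expressed genes (100%) came out whole within 0.0001 reads, and the count test on them, voom, called 27 genes. Values were tested as log2(RPKM + 0.5) in genes with a mean of at least 0.5 RPKM by limma 3.58.1 (R 4.3.3) (spread modelled on intensity), as two-sided tests adjusted over 11375 genes by Benjamini-Hochberg. That scale understates changes of low genes. On simulated data for this comparison the test recovered 74% of 1.5-fold and 93% of 2-fold changes, drawn from all tested genes, each varying independently. The median standard error was 0.0898 over all tested genes but 0.218 over the 13 messenger RNAs, which move together. The recovered shares therefore do not carry over to these messenger RNAs. The 5 ratios were tested by exact permutation in Python 3.11.15 with NumPy 2.4.6. Tables used Python 3.11.15, pandas 2.3.3 and NumPy 2.4.6, and figures matplotlib 3.10.9. Alternatives changed the pseudocount, filter, scaling, spread model, test, block, grouping, covariates (exon share, passage) and libraries. The members and lists were chosen with earlier results of these data known. Named were all ribosomal and messenger RNAs, transfer RNAs by reads and strand, POLRMT, TFAM, TFB2M, TEFM and LRPPRC, and up to 3 genes per nuclear list by fold change.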

Additional observations from a re-analysis of the deposited data

Results flagged for a closer look

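In 6 of the 50 groups of 4 values examined, 1 library stood apart from the other 3 by Dixon's test at the 95% level, which chance gives in about 1 of 20 groups. Because the transcripts share libraries, these are not independent. MT-RNR1 was 29005 RPKM in E2+DHT replicate 4, against 23836 to 24563 in the other 3. MT-ND4L was 364.9 RPKM in the same library, against 191.9 to 216.3, and MT-ND5 was 178.0 RPKM there, against 95.3 to 106.1. MT-ND4 was 438.1 RPKM in E2 replicate 2, against 233.1 to 268.0 in the other E2 libraries, and MT-CYB was 425.6 RPKM there, against 263.7 to 290.6. MT-CO3 was 3661 RPKM in E2+DHT replicate 1, against 4043 to 4121 in the rest of its group.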

How the results depend on the processing

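Under all 14 other settings and all 8 fits without 1 library, 0 mitochondrial transcripts passed, with limma unadjusted counts of 0 to 12 of those tested. The count over all genes, 21, was 5 with no filter, 34 after median centring, 40 with mitochondrial reads out of the library size, 11 with an equal messenger RNA sum, 2 with groups from the titles, 5 with the exon share as a covariate, 51 with the recorded passage as one and 0 in the 4 records whose labels agree (286 at an unadjusted limma p under 0.05); without single libraries it was 6 to 18. With the replicate number as a block it was 72, and numbers 1 and 2 correlated best with their own number while 3 and 4 did not (correlations of 0.703, 0.455, 0.121 and 0.0833), so the numbers were not taken as pairs; read by number, the share of reads in the 37 genes was higher in E2+DHT for 4 of 4.
The median of the ribosomal RNAs was 0.035 with an equal messenger RNA sum, 0.034 under the titles and 0.23 with the exon share, that of the messenger RNAs 0.54 with the exon share, -0.13 with the passage and -0.0071 under the titles, and that of the transfer RNAs, 0.0038 in the fit reported, -0.68 under the titles and -0.67 where labels agree. The difference in the share of reads, 1.73 percentage points, was -0.35 under the titles and 1.14 to 2.67 without single libraries.
An equal sum centres the messenger RNAs near 0, so that some signs turn by construction: the log2 fold changes were -0.0087 for MT-ATP8, -0.017 for MT-CO3, -0.021 for MT-ND3, -0.073 for MT-ND4L, -0.040 for MT-ND5 and -0.026 for MT-CYB. Under the titles they turned to -0.032 for MT-RNR2, -0.0071 for MT-CO1, -0.017 for MT-ATP8, -0.031 for MT-ATP6, -0.020 for MT-CO3, -0.22 for MT-ND3, -0.027 for MT-ND4, -0.28 for MT-ND6 and -0.73 for MT-TY. With the passage as a covariate they were -0.13 for MT-ND1, -0.21 for MT-ND2, -0.017 for MT-CO1, -0.14 for MT-CO2, -0.20 for MT-ATP8, -0.10 for MT-ATP6, -0.0032 for MT-CO3, -0.040 for MT-ND3, -0.20 for MT-ND4L, -0.051 for MT-ND4, -0.23 for MT-ND5, -0.19 for MT-ND6 and -0.13 for MT-CYB. Where labels agree they were -0.15 for MT-ND3 and -0.19 for MT-ND6. The log2 ratios turned under the titles to -0.36 for MT-ND6/MT-ND5, 0.014 for MT-ATP8/MT-ATP6 and 0.31 for MT-ND4L/MT-ND4, and where labels agree to -0.31 and 0.18 for the first and the last. Apart from the equal sum, the cause of these turns was not tested.
Without single libraries the log2 fold changes ranged from -0.020 to 0.25 for MT-ND1, -0.061 to 0.30 for MT-ND2, -0.025 to 0.30 for MT-CO2, -0.095 to 0.29 for MT-ATP8, -0.018 to 0.27 for MT-ATP6, -0.077 to 0.20 for MT-ND3, -0.19 to 0.12 for MT-ND4L, -0.042 to 0.34 for MT-ND4, -0.16 to 0.24 for MT-ND5, -0.055 to 0.40 for MT-ND6 and -0.078 to 0.22 for MT-CYB. They ranged from 0.084 to 0.18 for MT-RNR1, 0.058 to 0.15 for MT-RNR2, 0.049 to 0.20 for MT-CO1, 0.0017 to 0.17 for MT-CO3, 0.43 to 1.16 for MT-TY and -1.32 to -0.48 for MT-TC, with no turn. The others turned without E2 replicate 1 or 3 or E2+DHT replicate 4. The ratios ranged from -0.11 to 0.022 for MT-RNR2/MT-RNR1, -0.073 to 0.16 for MT-RNR1/MT-ND1, -0.061 to 0.22 for MT-ND6/MT-ND5, -0.092 to 0.011 for MT-ATP8/MT-ATP6 and -0.22 to 0.0034 for MT-ND4L/MT-ND4. At a minimum mean of 2 RPKM no transfer RNA was left to test. Transfer RNAs rest on single reads, and for them depth limits what can be seen.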
